A study of Drosophila melanogaster with 7 samples.

Results

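The *Drosophila* genes *chn* (charlatan), *rap* (retina aberrant in pattern, now *fzr*), *rux* (roughex), *L* (Lobe), *toy* (twin of eyeless) and *faf* (fat facets), all studied for their part in the compound eye, were followed on 7 two-colour cDNA arrays of *lolaORC4* mutant embryos. They belong to the eye development group of the study's table of *lola*-dependent genes. That table prints *rap1* in this group, while the study's discussion of its eye patterning genes has *rap*, which was used here. The genes of that group that the table marks as *Notch*-associated were left out, and so was *sickle*, which the table lists there without that mark and which is also known as a cell death gene. The table rests on arrays of a *lola* null, not on the arrays described here. These genes were taken from it with earlier results of the present arrays known. They were found on the arrays through the gene symbol of each spotted cDNA clone. Of 10376 features, 7 carried the symbol *rux*, *L*, *toy* or *faf*, 2 carried *fzr*, the current symbol of *rap*, and 1 (clone LD23883), which the platform's gene table does not list, is named *chn* in the study's own list. These 10 clones, 1 each of *chn* and *rux* and 2 each of *rap*, *L*, *toy* and *faf*, are all described. In the platform's table the *L* clones RE53130 and AT08673 have different gene identifiers, and a current gene table gives *L* as the symbol of the gene also called *Oaz* and as an older name of *PRAS40*. By the current gene table the identifier of AT08673 is that of *L*, and the identifier of RE53130 is not listed. Whether both clones measure the same gene, or either measures Lobe, was not tested.

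*lola* encodes a family of transcription factors with a shared BTB domain and variant zinc fingers, and the *lolaORC4* allele inactivates isoform K alone. The mutant embryos carried *lolaORC4* on both copies of the chromosome, together with *sca-GAL4* on one copy and *UAS-tau-eGFP* on the other. The controls carried *sca-GAL4* and *UAS-tau-eGFP* without the mutation. Both were in a *w1118* background, and embryos were sorted by hand by the green fluorescence of the reporter in the central nervous system. Each RNA sample was a pool of about 300 whole embryos, 10 to 12 hours after egg laying, and the mutant and control pools of each of the 7 pairs were collected together and hybridized to the same array. Loci other than *lola* on the mutant chromosome cannot be told apart from the mutation in this design. The ratios carry no expression level, so the tissue could not be checked against its markers, and in whole embryos fewer cells of a type and less RNA per cell cannot be told apart.

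The fly eye grows from a disc of epithelium set aside in the embryo and patterned in the larva. *toy* and its relative *ey* are Pax6 genes at the head of the retinal determination network, which calls up *so*, *eya* and *dac*. As the morphogenetic furrow crosses the disc, cells are held in G1: Rap, better known as Fizzy-related, turns on the anaphase-promoting complex, which has mitotic cyclins destroyed, and Roughex restrains cyclin A and its kinase. Charlatan is a zinc finger protein that acts on proneural genes, Lobe is needed for growth of the ventral eye, and Fat facets is a deubiquitinating enzyme that, with the epsin Liquid facets, keeps extra cells from becoming photoreceptors. Several of these genes also work outside the eye. *fzr* takes part in the exit of embryonic cells from the cell cycle, and *toy* is expressed in the embryonic head.

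The deposited value of each feature on each array is a log2 ratio of both channels. The arrays run in the same direction, with Pearson correlations across features of 0.06 to 0.72 between arrays, but whether this is mutant over control is not settled, since by the labels Cy5 was the dye of the mutant sample on 4 arrays (replicates 2, 3, 5 and 7) and Cy3 on the 3 others (replicates 1, 4 and 6), while the methods count them the other way round. As deposited, all 7 arrays ran against the study's list of fold changes in the null, so every value was multiplied by -1. Positive and negative below refer to this sign, in which both clones of the actin nucleation gene *spir* are positive on 7 of 7 arrays (means 1.58 and 1.15). They are not claims of higher or lower expression in the mutant, and under the opposite reading every sign would turn.

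None of the 10 eye development clones passed the test. At an adjusted p under 0.05 (*limma*, Benjamini-Hochberg over all features) 0 of 10 were called, against 793 of all 10376 features, or 7.64% (3.18% positive and 4.46% negative). Adjusted p-values of the clones ran from 0.13 to 0.96 (*limma*), and 3 clones had an unadjusted p under 0.05, as did 21.9% of all features. An unmoderated test on each feature called 0 of the 10 as well. Means lay between -0.09 and 0.14 on the log2 scale, 6 positive and 4 negative. The median absolute mean was 0.08, against 0.06 for all features and 0.30 for the called ones. In 8 of the 10 clones the whole 95% confidence interval (*limma*) lay within 0.2 of 0 on the log2 scale. The exceptions were *chn* LD23883 and *toy* GH26083, which had wider intervals. The share of all features with an interval within 0.2 of 0 was not computed. The ratios carry no level, so whether each spot had signal enough to show a change was not tested. At the SE of each clone, an absolute mean between 0.13 (*rux*) and 0.40 (*chn*) would have been needed for a call.

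**Figure D1:**
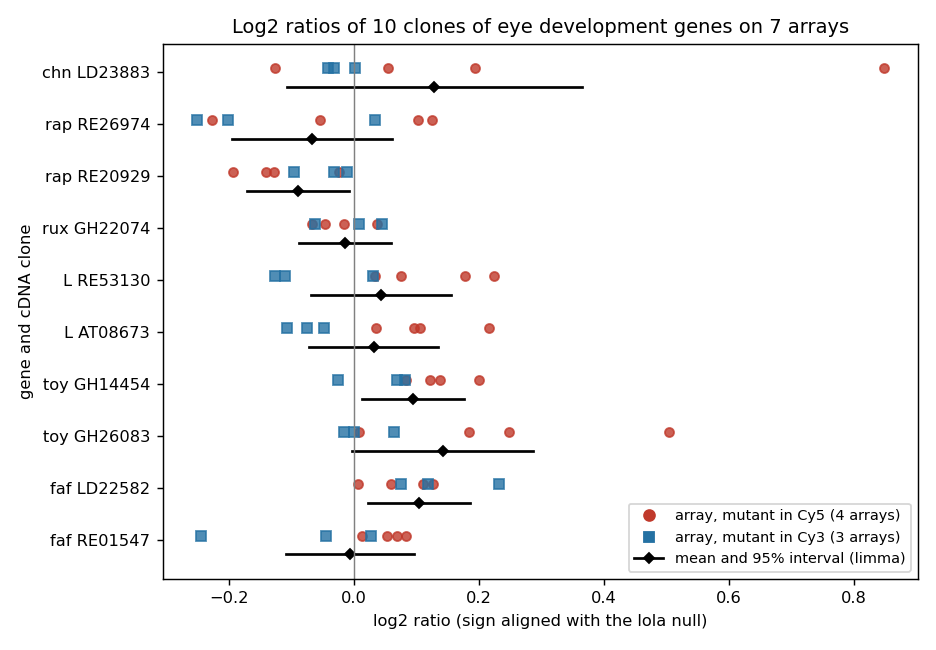
Log2 ratios (x axis, sign aligned with the *lola* null) of the 10 clones, 1 row per clone. Red circles are the 4 arrays with the mutant in Cy5, blue squares the 3 with the mutant in Cy3, and the black diamond and bar below them are the mean and its 95% confidence interval from *limma*. The points at 0.85 (*chn*) and 0.50 (*toy* GH26083), both from replicate 2, are the highest.

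*toy*, the Pax6 gene, was positive on both of its clones, below the threshold of the test. Clone GH14454, the one in the study's null list, ranged from -0.03 (replicate 6) through a median of 0.08 to 0.20 (replicate 2), with a mean of 0.10 ± 0.07 (SD, n = 7 arrays) and an adjusted p of 0.16 (*limma*). Clone GH26083 ranged from -0.01 (replicate 1) through a median of 0.06 to 0.50 (replicate 2), with a mean of 0.14 ± 0.19 (SD, n = 7) and an adjusted p of 0.24 (*limma*). Each clone was positive on 6 of 7 arrays. Their lowest values lay close to 0 and their highest came from the same array, without which GH26083 had a mean of 0.08. In linear terms the 95% intervals of the mean ran from 1.01-fold to 1.13-fold for GH14454 and from 0.998-fold to 1.22-fold for GH26083. With the clones averaged, *toy* was at 0.12 (95% interval 0.01 to 0.22, adjusted p = 0.18 from *limma*). By dye orientation, GH14454 had a mean of 0.14 with the mutant in Cy5 and 0.04 with it in Cy3. GH26083 had 0.24 and 0.02. Neither dye difference passed (adjusted p = 0.34 and 0.24 from *limma*).

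A list of 9 retinal determination genes held 10 features, both *toy* clones included. Of these 0 passed the test, and 2, *toy* GH14454 and *dan*, a nuclear factor gene of the same network, had an unadjusted p under 0.05 (*limma*). Of all features 7.64% and 21.9% did. *ey* and *eya* were not analysed here. *dac*, a nuclear protein gene late in the network, had a mean of 0.18, positive on 5 of 7 arrays, with an SE of 0.10 and an adjusted p of 0.38 (*limma*). Its value on replicate 2 was 0.75, and without that array the mean was 0.08. *so*, a homeobox gene whose product partners with Eyes absent, had a mean of 0.07 (SE 0.06, *limma* adjusted p = 0.50). The list's median was 0.08, against 0.01 for all features. These means differed by dye orientation. With the mutant in Cy5 *so* had a mean of 0.17 and *dac* one of 0.30, and with it in Cy3 -0.05 and 0.01. In this list only *tio* had the lower mean with the mutant in Cy5 (-0.18, against 0.14 in Cy3).

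The G1 arrest genes *rap* and *rux* had negative means on all 3 of their clones, and none passed the test. Of the *rap* clones, RE20929 was negative on all 7 arrays, from -0.19 (replicate 5) through a median of -0.10 to -0.01 (replicate 4), which 11.6% of all features matched by keeping a single sign. Its mean was -0.09 ± 0.07 (SD, n = 7), or 0.940-fold with an interval of 0.889 to 0.995, and the adjusted p was 0.19 (*limma*). Clone RE26974, which is in the null list, was not as even. Replicates 4, 7 and 1 gave -0.25, -0.23 and -0.20, replicate 3 gave -0.05, and the other three gave values between 0.03 and 0.13, with a mean of -0.07 ± 0.16 (SD, n = 7) and an adjusted p of 0.56 (*limma*). *rux* clone GH22074 had the tightest values of the 10, from -0.07 through a median of -0.02 to 0.04, and 98.6% of all features had a larger SD. Its mean was -0.01 ± 0.05 (SD, n = 7, adjusted p = 0.85 from *limma*), and the interval of 0.941-fold to 1.04-fold was the narrowest of the 10.

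Features of the genes that *rap* and *rux* work with were not called either, in lists too short to hold many calls at the 7.64% of all features. In a list of cyclins, cyclin-dependent kinase genes and G1 regulators 0 of 21 features were called. There 3, *rap* RE20929 among them, had an unadjusted p under 0.05 (*limma*), as did 21.9% of all features. In a list of subunits and activators of the anaphase-promoting complex 0 of 6 were called and 0 had an unadjusted p under 0.05 (*limma*). *rap* and *fzy* were counted in the list of cyclins and are not among these 6. *fzy*, the other general activator of that complex, was at -0.02 (SE 0.07), and *CycB*, a mitotic cyclin gene, at 0.13 (SE 0.08, *limma* adjusted p = 0.41). *dap*, which encodes the inhibitor of cyclin E and its kinase, was at -0.15 (SE 0.08, adjusted p = 0.31 from *limma*), and at -0.09 without replicate 1. *twe*, a Cdc25-type phosphatase gene of meiosis, had a mean of 0.35 (SE 0.10), positive on 6 of 7 arrays, with an adjusted p of 0.075 (*limma*).

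The mean of *chn* rested on a single array. Clone LD23883 was at 0.85 on replicate 2, while the 6 other values lay between -0.13 (replicate 7) and 0.19 (replicate 5), and the median was 0.0023. The mean was 0.13 ± 0.33 (SD, n = 7, adjusted p = 0.54 from *limma*), with an interval of 0.928-fold to 1.29-fold, and without replicate 2 the mean was 0.0087. Of all features, 6.68% had a larger SD. In a list of 12 features of proneural genes and their regulators, *chn* included, *pros*, a homeobox gene of neuronal differentiation, was positive and 11 did not pass. The share called was 8.33%, against 7.64% of all features. *pros* clone HL08040 had a mean of 0.23 ± 0.13 (SD, n = 7, adjusted p = 0.021 from *limma*), positive on 7 of 7 arrays, and was not called without replicate 3 or without replicate 5. *ase*, a proneural gene of the achaete-scute complex, was at -0.03 (SE 0.04), and *da*, which encodes the partner of the proneural proteins, at 0.04 (SE 0.07).

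**Figure D2:**
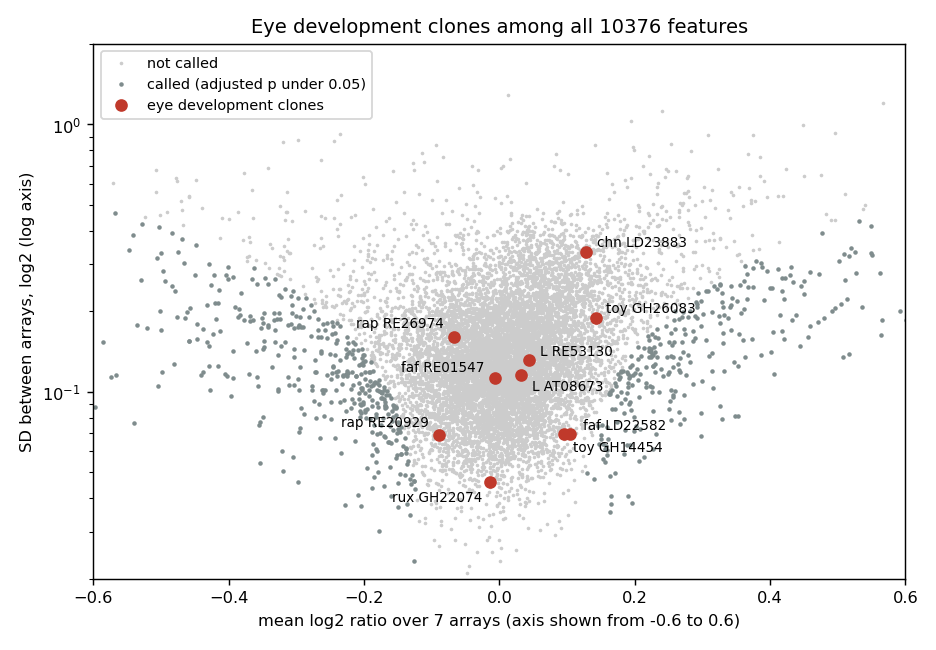
Mean log2 ratio over 7 arrays (x axis) against the SD between arrays (y axis, log scale) for all features, with called features dark grey and the 10 eye development clones in red; 158 features with an absolute mean above 0.6 are outside the axis. All red points lie among the features that were not called, *chn* LD23883 at an SD of 0.33 and *rux* GH22074 at 0.05.

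The means of both *L* clones were close to 0, and their values were split by dye orientation. Clone RE53130, in the null list, had 0.22, 0.18, 0.034 and 0.075 on the arrays with the mutant in Cy5 (replicates 2, 3, 5 and 7) and 0.031, -0.13 and -0.11 on those with the mutant in Cy3 (replicates 1, 4 and 6). Clone AT08673 had 0.04, 0.22, 0.10 and 0.11 with the mutant in Cy5 and -0.05, -0.08 and -0.11 with it in Cy3. For both clones every Cy5 value lay above every Cy3 value, as it did for *toy* GH14454 and for 10.2% of all features. Groups that did not overlap in either direction were found for these 3 of the 10 clones and for 26.4% of all features. The difference of the orientation means was 0.20 (95% interval 0.03 to 0.36) for RE53130 and 0.19 (0.05 to 0.33) for AT08673, with adjusted p-values of 0.13 and 0.094 from *limma*. No dye difference among the 10 clones passed, against 10.6% of all features, and 2 of the 10 had an unadjusted p under 0.05, against 27.1% of all features. Over all arrays the means were 0.04 ± 0.13 for RE53130 and 0.03 ± 0.12 for AT08673 (SD, n = 7 each), with adjusted p-values of 0.67 and 0.76 from *limma*. Their 95% intervals reached from 0.954-fold to 1.11-fold and from 0.952-fold to 1.10-fold.

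Lobe has been linked to the Tor pathway and to ventral growth signals of the eye. Whether either *L* clone measures the gene with the Tor link was not tested. A list of 13 features of Tor pathway and ventral eye growth genes, both *L* clones included, held 1 positive and 2 negative calls. These were 23.1% of the list, against 7.64% of all features. Of the 13 features, 6 had an unadjusted p under 0.05 (*limma*), as did 21.9% of all features. *mTor*, the Tor kinase gene, had a mean of -0.37 ± 0.15 (SD, n = 7, adjusted p = 0.0034 from *limma*), negative on 7 of 7 arrays. The same clone changed on the study's arrays of the null, but quantitative RT-PCR of the null showed no significant change of this gene. *RagC-D*, a GTPase gene that couples amino acids to Tor, had -0.18 ± 0.03 (SD, n = 7, adjusted p = 0.0086 from *limma*), also negative on 7 of 7. *Stat92E*, the transcription factor of the JAK/STAT pathway, had 0.16 ± 0.10 (SD, n = 7, adjusted p = 0.046 from *limma*), and of the 7 fits that left out an array it was called only in the one without replicate 2. *Lst8*, a partner of Tor, had 0.14 (SE 0.04, adjusted p = 0.051 from *limma*) and was positive on 7 of 7 arrays. *S6k*, which encodes a kinase that Tor activates, had 0.16 (SE 0.07, *limma* adjusted p = 0.20). In all 10 features of the list were not called, among them *Lst8*, *S6k* and both *L* clones, and the list's median was 0.03, against 0.01 for all features.

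*faf* had the clone closest to the threshold. LD22582, in the null list, was positive on 7 of 7 arrays, from 0.01 (replicate 2) through a median of 0.11 to 0.23 (replicate 1), with a mean of 0.10 ± 0.07 (SD, n = 7) and an adjusted p of 0.13 (*limma*). Its interval ran from 1.02-fold to 1.14-fold. With a dye coefficient in the model its adjusted p was 0.063 and without replicate 2 it was 0.0998 (*limma*). The second clone, RE01547, was not positive in the same way. Replicate 6 gave -0.24, replicate 4 gave -0.04 and the 5 other arrays gave 0.01 to 0.08, with a mean of -0.0059 ± 0.11 (SD, n = 7, adjusted p = 0.96 from *limma*) and an interval of 0.928-fold to 1.07-fold.

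A list of deubiquitinase genes and of genes that work with *faf* had 35 features, of which 1, or 2.86%, was called, against 7.64% of all features. *Usp14*, the deubiquitinase gene of the proteasome, had 0.50 ± 0.21 (SD, n = 7, adjusted p = 0.0025 from *limma*), positive on 7 of 7 arrays. The *lqf* clones, of the epsin gene whose product Fat facets protects, were at 0.10 (AT01254, SE 0.06) and 0.02 (GH27912, SE 0.04). Both clones of *AP-2sigma*, a subunit gene of the clathrin adaptor, were at -0.15 (SE 0.05 for RE35245 and 0.04 for RH47542) with adjusted p-values of 0.079 and 0.076 (*limma*), and *Chc*, the clathrin heavy chain gene, was at 0.06 (SE 0.06).

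For the 4 genes with a pair of clones by symbol, the *L* pair included, the clone in the null list was set against the other on each array. The *faf* clones differed by 0.11 ± 0.13 (LD22582 minus RE01547, SD, n = 7), positive on 6 of 7 arrays (exact sign-flip permutation test, two-sided, p = 0.063, adjusted p = 0.25 over the 4 pairs). The differences were 0.02 ± 0.19 for *rap* (p = 0.77, exact permutation), 0.01 ± 0.09 for *L* (p = 0.81, exact permutation) and -0.05 ± 0.15 for *toy* (p = 0.47, exact permutation), with an adjusted p of 0.81 for each. The smallest p that 7 arrays allow is 0.016. The *L* clones had the same sign on 6 of 7 arrays, those of *toy* and *faf* on 5 and those of *rap* on 4. The 6 clones of the null list had a median absolute mean of 0.08 and the 4 others one of 0.06.

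**Figure D3:**
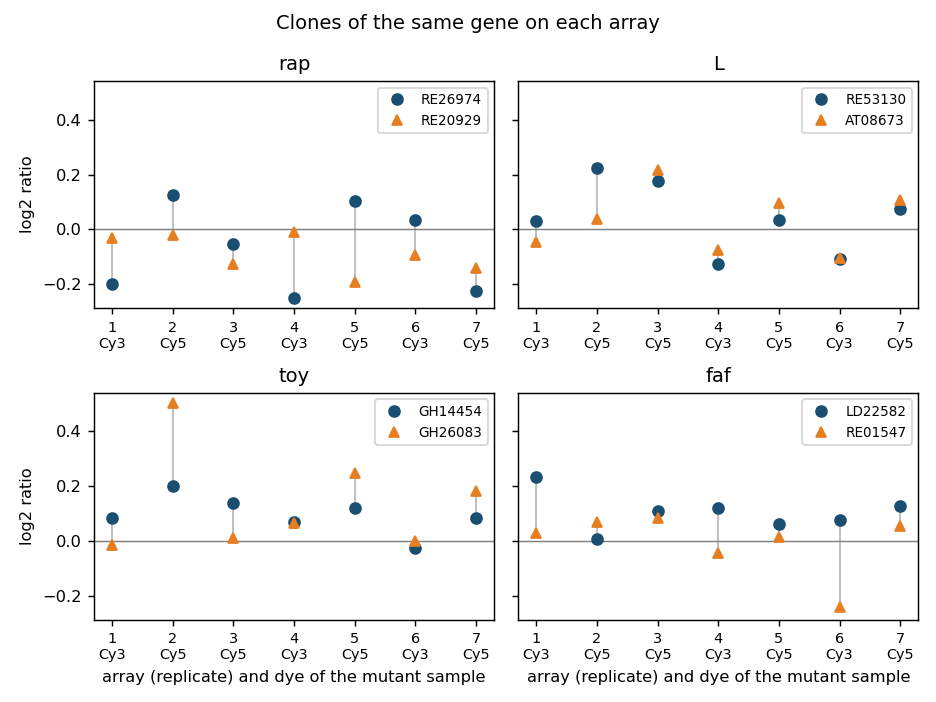
Log2 ratios (y axis) of both clones of *rap*, *L*, *toy* and *faf* on each array (x axis, replicate number and dye of the mutant sample), the clone of the null list in blue. The *L* clones lie within 0.08 of each other on every array except replicate 2 (0.22 and 0.04), the *rap* clones are farthest apart on replicate 5 (0.10 and -0.19), and the *faf* clones on replicate 6 (0.07 and -0.24).

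The sign of the 10 clones varied between arrays. With the mutant in Cy5, 8 of the 10 clones were positive on each of replicates 2, 3 and 5 and 6 on replicate 7, and with the mutant in Cy3, 4 were positive on each of replicates 1 and 4 and 5 on replicate 6. The median of the 10 was between 0.06 and 0.10 on the 4 Cy5 arrays and between -0.02 and -0.01 on the 3 Cy3 arrays. The median of all features lay between -0.02 and 0.01 on every array. The 10 clones come from 6 genes and are not independent of each other. Over all features, 47.9% had a higher mean with the mutant in Cy5, against 7 of the 10 clones. Only 2 of the 70 single values exceeded 0.5, both on replicate 2. For each clone the feature with the most similar values over the 7 arrays, among 8633 features of a single gene, was sought as a description. The *chn* clone was closest to *CG4115* (Pearson r = 0.99), *rap* RE26974 to *mi* (r = 0.99) and *toy* GH14454 to *klu* (r = 0.98). With so few arrays close matches were many for some patterns and few for others. There were 327 features with r above 0.9 to the *chn* clone, whose mean rested on replicate 2. For *rux* GH22074 there were 4, the closest being *CG17746* (r = 0.95).

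Genes of later eye development were described in 3 further lists. Of 18 features of photoreceptor specification and EGFR-Ras genes, *aos*, which encodes the secreted inhibitor of the EGF receptor, was positive at 0.18 ± 0.12 (SD, n = 7, adjusted p = 0.046 from *limma*), and of the 7 fits that left out an array was called only in the one without replicate 2, and 17 were not called. Of 21 features of phototransduction and visual pigment genes, 2 were negative and 19 were not called. Clone LD44686 of *inaE*, a diacylglycerol lipase gene, had -0.42 ± 0.22 and *ninaD*, a scavenger receptor gene for carotenoid uptake, had -0.29 ± 0.12 (SD, n = 7 each, adjusted p = 0.0077 and 0.0060 from *limma*). The second *inaE* clone was at -0.16 (SE 0.06, *limma* adjusted p = 0.18). Of 17 features of eye pigment and pigment granule genes 0 were called. Of these 4 had an unadjusted p under 0.05 (*limma*), as did 21.9% of all features. Over all 9 eye lists, 8 of 153 features, or 5.23%, were called, 4 in each direction, against the 7.64% of all features. Their median absolute mean was 0.05, against 0.06 for all features.

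**Figure D4:**
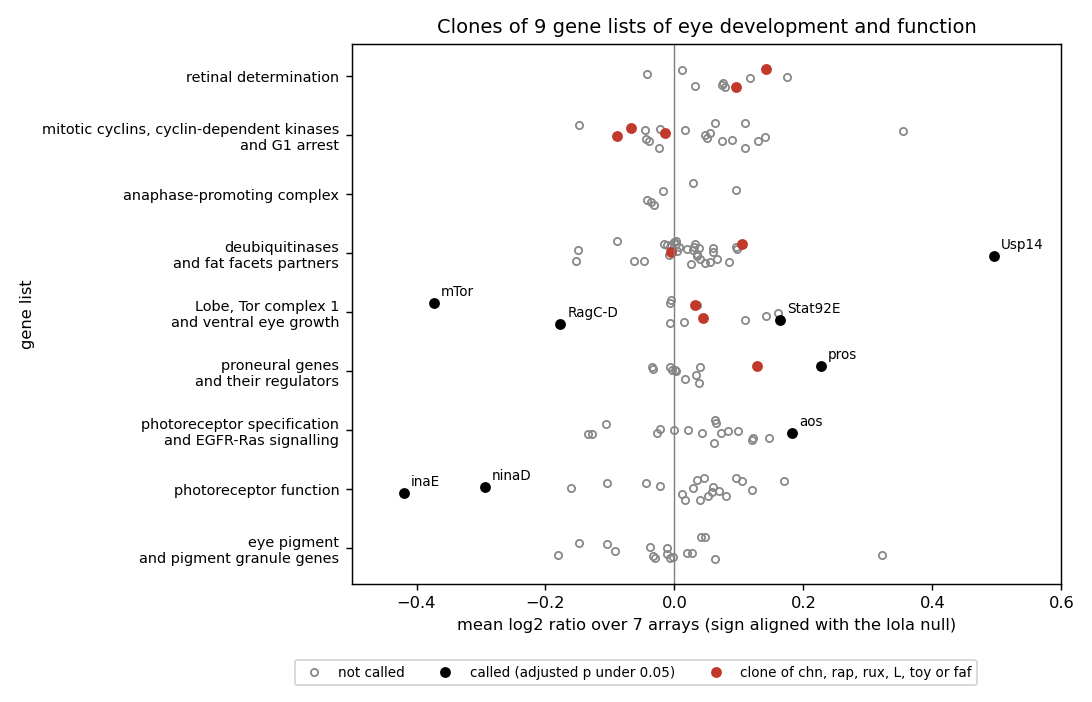
Mean log2 ratio over 7 arrays (x axis) of every feature in the 9 eye gene lists (rows, with vertical scatter for legibility), called features in black with their gene name and the clones of *chn*, *rap*, *rux*, *L*, *toy* and *faf* in red. The 8 called features lie between -0.42 (*inaE*) and 0.50 (*Usp14*), and the red points between -0.09 and 0.14.

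Markers of other cell types were mostly not called. Of the neuron markers 2 of 5 features were negative, *nSyb* at -0.39 ± 0.19 and *nrv3* clone RH24769 at -0.55 ± 0.34 (SD, n = 7 each, adjusted p = 0.0071 and 0.015 from *limma*), the second not called without replicate 5. The other *nrv3* clone, RE38489, was at 0.04, positive on 5 of 7 arrays, with an adjusted p of 0.66 (*limma*). *futsch* and *Rbp9* were at 0.07 and -0.0058, with adjusted p-values of 0.58 and 0.97 (*limma*). Of the glia markers 1 of 9 features was negative, *Gs2* at -0.62 ± 0.20 (SD, n = 7). The other 8 were not called and ran from -0.02 (*Gli*) to 0.17 (*moody*), with *repo* at 0.10. Of the hemocyte and fat body markers 2 of 9 features were positive, both clones of *Pxn* (0.39 ± 0.14 and 0.21 ± 0.06, SD, n = 7 each). The other 7 were not called and ran from -0.03 (*Fbp1*) to 0.14 (*Col4a1* GM04010). Over all features 7.64% were called. Of 15 muscle features 0 were called, with means from -0.46 (*Mlp60A* RH74176) to 0.27 (*sls* GM05521). Of these 4 had an unadjusted p under 0.05 (*limma*), as did 21.9% of all features. Without replicate 1 both *Mlp60A* clones (-0.59 and -0.61) and *Mlc2* (-0.55) were called, and the other muscle features were not. The part of these cell types in the values of the eye genes was not tested.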

How the data were processed

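RNA of 7 pairs of *lolaORC4* mutant and control embryo pools was measured on spotted arrays of *Drosophila* Gene Collection cDNAs. The authors read GenePix intensities with *limma* (version not given in the sources used here), did not correct for background, used print-tip loess within arrays and scaling between them, and deposited for each feature a log2 ratio on every array. Its direction and centring are not stated. All 10376 features, 149 control spots included, had a value on every array, and the array medians lay between -0.02 and 0.01 after the sign was turned. The number of arrays limits the precision.

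Each feature's mean was tested against 0 with *limma* 3.58.1 in R 4.3.3 by lmFit and eBayes. p-values were adjusted by Benjamini-Hochberg over the whole table. Dye differences were fitted in a second model. Clone pairs were compared with an exact sign-flip permutation test in scipy 1.17.1. Only the test of the mean against 0 was tried on simulated data, with independent values that lacked the dye and array differences of these arrays. Gene symbols came from the platform's annotation, updated through a Release 6 gene table, and for 45 features from the study's list. In all 8643 features had 1 gene. A feature of the muscle list marked as a *copia* clone was left out. Members and lists were chosen with earlier results of these data known. Named were all member clones, *spir*, up to 4 called features of each list, *so* and *dac*, and nearest patterns. Further list genes were chosen after their values were seen. No sequences are printed. Each SE and each p-value from *limma* rests on the spread between the 7 pairs, moderated by the spread of all features. SDs and permutation p-values rest on the 7 pairs alone.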

Additional observations from a re-analysis of the deposited data

Results flagged for a closer look

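In a Dixon test of the 7 values of each of the 10 clones, 2 clones had an array far from the others. *chn* LD23883 was at 0.85 on replicate 2, with the next value at 0.19, and *faf* RE01547 was at -0.24 on replicate 6, with the next at -0.04. Chance alone flags about 1 in 20 such groups, and 6.34% of all features were flagged. Replicate 2 was the outlying array in 269 of the 658 flagged features and replicate 6 in 72.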

How the results depend on the processing

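None of the 10 clones was called under any fit tried with the 0.05 threshold on adjusted p: a dye coefficient, median centring, quantile normalization, array weights, robust or no moderation, leaving out control spots, averaging the clones of a gene, and leaving out each array. An adjusted p under 0.1 called 0 as well, and an unadjusted p under 0.05 called 3. Over all features 1234 were called with a dye coefficient, 2271 by unadjusted p and 1229 at an adjusted p under 0.1, against 793. Leaving out 1 array gave 441 (without replicate 5) to 810 (without replicate 2), with 446 without replicate 3 and 494 without replicate 7. The eye lists had 15 calls with a dye coefficient, against 8, and 5 (without replicate 3 or 5) to 12 (without replicate 2) when 1 array was left out.

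Means close to 0 changed sign in places. *faf* RE01547 ranged from -0.021 to 0.034 when 1 array was left out. The clone difference ranged from -0.024 to 0.065 for *rap* and from -0.017 to 0.024 for *L*, which was -0.0302 as a median, and the dye difference of *rux* from -0.0496 to 0.00385. No clone difference and no dye difference of a member passed in any alternative. Without replicate 2 the means of *CycB*, *S6k*, *so* and *lqf* AT01254 were 0.07, 0.09, 0.04 and 0.05. Every value is the ratio of a mutant and control pair on its own array, so the tests against 0 and between clones are paired already.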
